A study of Mus musculus with 24 samples.

Results

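Interventions of 2 kinds against ENPP1 were set side by side in mouse kidney on an adenine diet: the genetic knockout, measured as ENPP1 knockout minus wild type, and a monoclonal antibody raised to human ENPP1, measured as antibody minus control IgG. The quantity of interest was the knockout effect minus the antibody effect, gene by gene. It used the 20 libraries from adenine-fed mice out of 24 in all, and 17119 genes passed the filter on low counts. A positive difference can come from a larger rise in the knockout or from a larger fall with the antibody, so both effects are given with it. Genes changed by both in one direction are called shared, and genes changed by both in opposite directions are called opposite.

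All 20 mice received adenine for 14 days. The knockout group (n = 6) carried floxed Enpp1 alleles and the CAG-ERCre transgene, a tamoxifen-activated Cre recombinase under the broadly active CAG promoter. The wild-type group (n = 6) lacked the Cre transgene, so Cre and knockout cannot be told apart. The antibody group (n = 4) and the IgG group (n = 4) were injected intraperitoneally with 50 mg/kg 2 times per week. The sources used here give no floxed status for wild type, no tamoxifen dosing of controls, no age, strain or sex, and no word on whether antibody-treated mice had the human protein. A chow-fed group (n = 4, genotype not given) entered no comparison and is quoted as a level without adenine. It was part of 1 alternative fit only, which used all 24 libraries to estimate the spread. Library preparation was strand-specific and started with 400 ng of RNA.

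ENPP1 is a membrane enzyme that cleaves ATP outside the cell, leaving AMP and pyrophosphate. Pyrophosphate restrains mineral deposition, AMP is the precursor of extracellular adenosine, and ENPP1 also degrades the cyclic dinucleotide cGAMP, a messenger of the cGAS-STING interferon pathway. Dietary adenine is oxidised to a poorly soluble purine that crystallises in the tubules. The injured proximal tubule then loses its transporters and metabolic enzymes, turns on repair genes such as Sox9, and is surrounded by leukocytes and matrix-forming cells.

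The target transcript did not separate the groups. Enpp1 ranged from 20.9 to 23.9 normalised read counts, scaled to library size (CPM), with a median of 21.6 in the libraries labelled knockout and from 20.2 to 24.1 with a median of 20.6 in wild type. It was 11.9, 3.38, 4.08 and 22.1 CPM with the antibody and 9.45, 10.6, 10.4 and 8.74 CPM with IgG. The knockout effect was 0.05 ± 0.26 on the log2 scale (standard error, adjusted p = 0.90), the antibody effect 0.07 ± 0.34 (adjusted p = 0.87) and their difference -0.02 ± 0.43 (adjusted p = 0.98). Without antibody replicate 4, the highest of its group, the antibody effect was -0.61 (adjusted p = 0.044). Which exons the floxed alleles lose is not given in the sources used here, and an antibody binds protein, so Enpp1 RNA did not check the labels of either experiment. Knockout below means the libraries labelled so.

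The experiments also differed from each other before any effect was taken. Assigned reads ran from 21057859 to 25995281 per adenine library in the knockout experiment, while antibody experiment libraries held 43886517 to 50566596. Ddx3y, a Y-linked helicase gene, lay between 77.8 and 123 CPM in the 8 libraries of the antibody experiment and at or below 0.53 CPM in the 16 libraries of the knockout experiment, chow included. Eif2s3y, a Y-linked translation factor gene, lay between 75.7 and 120 CPM in the former and at or below 0.19 CPM in the latter. Kdm5d and Uty, Y-linked demethylase genes with X-linked relatives, showed a smaller gap, at 34.7 to 56.0 and 32.1 to 61.4 CPM in the 8 libraries against 7.29 to 11.98 and 1.07 to 4.81 CPM in the 16. For all 4 genes the 8 libraries lay above the 16 without overlap. The sex that Y-linked RNA marks, depth, experiment and the type of intervention therefore cannot be told apart in the difference. The baselines on adenine differed too: the summed injured tubule list lay between 53001 and 55902 CPM with IgG and between 15669 and 23875 CPM in wild type. Such a sum follows its most abundant genes. The mineralisation list, which also holds Spp1, summed to 49073 to 51563 CPM with IgG and 15548 to 21987 CPM in wild type. The share of Spp1 in these sums was not examined.

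**Figure D1:**
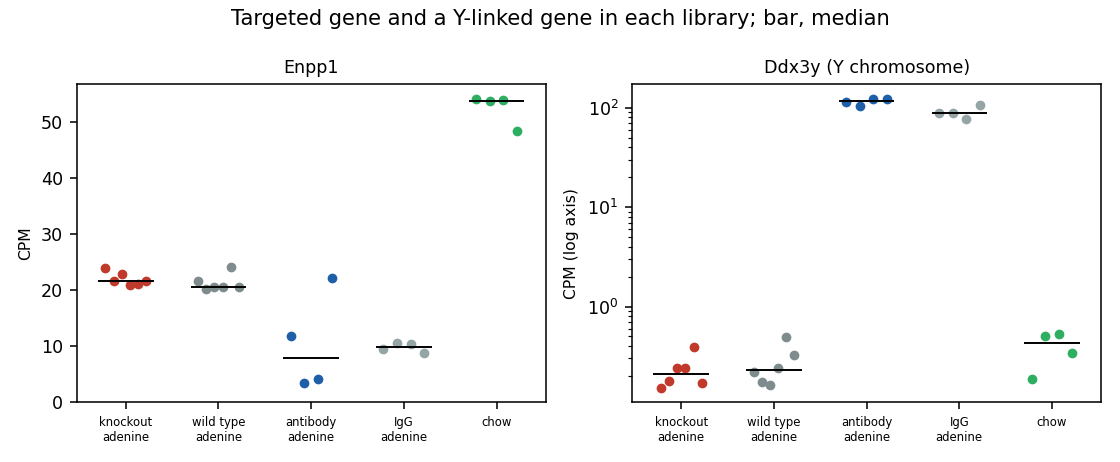
Level of Enpp1 (left, linear axis) and of Ddx3y (right, log axis) in CPM, one point per library in 5 groups, with the group median as a bar. The knockout and wild-type libraries overlap for Enpp1 at 20.2 to 24.1 CPM, the antibody libraries spread from 3.38 to 22.1 CPM, and Ddx3y separates the antibody experiment from the other libraries.

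Most genes that responded to both interventions did so in the same direction. The knockout effect called 7297 genes (42.6% of those tested), with 4047 higher (23.6%) and 3250 lower (19.0%). The antibody effect called 10452 (61.1%), with 5830 higher (34.1%) and 4622 lower (27.0%). Both effects called 5228 genes, which is 71.6% of the knockout calls and 50.0% of the antibody calls. Of these, 4562 (87.3%) were shared, 2867 higher in both (16.7% of genes tested) and 1695 lower in both (9.90%). The remaining 666 were opposite (3.89% of genes tested), 260 higher in the knockout and lower with the antibody (1.52%) and 406 the other way round (2.37%). Across all 17119 genes the effects correlated with Pearson's r = 0.43 and Spearman's rho = 0.53, and 69.0% of genes had the same sign. This is a description across genes, which are not independent, and the 2 effects share no library.

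The difference itself was called for 6485 genes (37.9%), with 2788 higher (16.3%) and 3697 lower (21.6%). With upper-quartile scaling these became 4504 higher and 2012 lower, so the share of higher calls went from 43.0% to 69.1%. That scaling moved the median antibody effect of all genes from 0.03 to -0.19 and the median difference from -0.03 to 0.13, so directions near 0 depend on it. With it the knockout calls became 3246 higher and 4655 lower. They were 2948 and 3913 with a filter of at least 5 CPM on average, and 3655 and 3968 with all 24 libraries. Antibody calls also were more often lower than higher under these settings. Without wild-type replicate 4, 47.6% of knockout calls and 48.0% of antibody calls were higher, against 55.5% and 55.8% in the main fit. For 3478 of the called differences only the antibody effect was called, for 809 only the knockout effect, for 2063 both and for 135 neither. The median size of effect was 0.20 for the knockout and 0.38 for the antibody on the log2 scale, with median standard errors of 0.09 and 0.11. Among shared genes, the difference was called for 979 of those higher and 418 of those lower. The antibody effect was the larger in 890 of the 979 and in 409 of the 418.

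**Figure D2:**
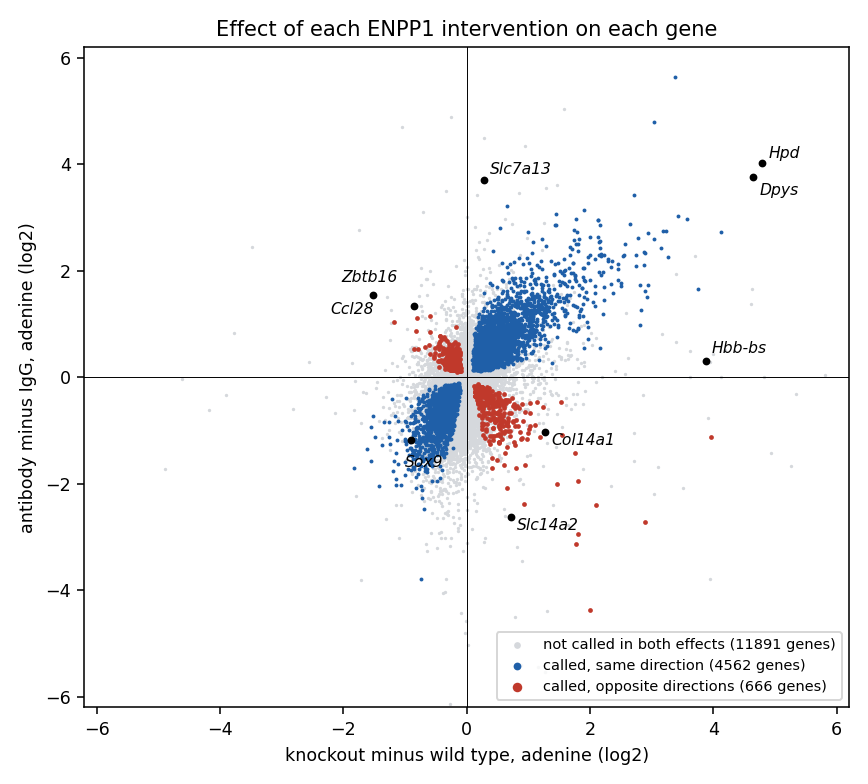
Knockout effect (x axis, log2) against antibody effect (y axis, log2) for each gene tested, coloured by whether both effects were called and in which direction, with 15 genes outside the axes. The 4562 shared genes fill the upper right and lower left areas, and the 666 opposite genes form smaller groups in the other areas.

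Tubular function genes were higher with both interventions. Of 26 proximal tubule markers, 25 rose in the knockout (background 23.6%) with a list median of 1.33, and 26 rose with the antibody (background 34.1%) with a median of 1.82. The median over all genes tested was -0.02 and 0.03 for the 2 effects. The summed level of the list ran from 9598 to 18533 CPM in the knockout and 3861 to 6893 CPM in wild type, and from 35649 to 56343 CPM with the antibody and 9312 to 17107 CPM with IgG. Neither pair of groups overlapped. The knockout range overlapped that of the IgG libraries of the other experiment, while chow lay between 39504 and 42209 CPM. In bulk tissue, more cells of a type and more RNA per cell cannot be told apart.

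Some tubule genes, chosen after their values were seen, rose in both effects. Ass1, the argininosuccinate synthase of arginine production, rose by 2.88 in the knockout and 2.12 with the antibody. Slc22a6, the basolateral organic anion transporter OAT1, rose by 1.89 and 2.06. Slc34a3, a brush border phosphate transporter from the mineralisation list, rose by 2.29 and 2.22, with a difference of 0.07 that was not called. Of the 26 markers, 11 had a called difference, every one of them negative (background 21.6%), and the list's median difference was -0.41. The 11 include Slc7a13, which had few reads in the knockout experiment and whose difference is not read below. They also include Cyp2e1, whose difference cannot be told apart from the Y-linked split between experiments. Lrp2, which encodes the endocytic receptor megalin, had medians of 472 and 259 CPM in knockout and wild type, with ranges of 334 to 661 and 202 to 379 CPM that overlapped. It ranged from 1282 to 1988 CPM with the antibody against 263 to 449 CPM with IgG, without overlap. Its difference was -1.41 ± 0.27 (adjusted p = 4.3e-04).

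The 6 shared higher genes with the largest smaller effect were Hpd, Dpys, Inmt, Apom, Cyp2d12 and Ces1g. Hpd, a dioxygenase of tyrosine breakdown, had a lowest value of 52.6, a median of 88.1 and a highest of 138 CPM in the knockout, against 1.20, 2.32 and 7.84 CPM in wild type. It was 13.1, 22.9, 19.99 and 37.5 CPM with the antibody and 2.32, 0.61, 2.10 and 0.76 CPM with IgG. Each treated group lay above all of its control libraries. The knockout effect was 4.79 ± 0.39 (adjusted p = 3.8e-08), the antibody effect 4.03 ± 0.50 (adjusted p = 8.4e-07) and the difference 0.77 ± 0.65 (adjusted p = 0.38). In chow Hpd lay between 199 and 234 CPM. Dpys, the dihydropyrimidinase of pyrimidine breakdown, rose by 4.64 ± 0.42 and 3.77 ± 0.40, and Inmt, an amine N-methyltransferase, by 3.23 ± 0.31 and 2.75 ± 0.35. Apom, an apolipoprotein that carries sphingosine-1-phosphate, rose by 3.58 ± 0.34 and 2.97 ± 0.33. Cyp2d12, a cytochrome P450, and Ces1g, a carboxylesterase, belong to families of near-identical genes whose reads are divided by estimation, so their rises of 3.38 and 5.65, and of 3.04 and 4.80, are uncertain. The knockout effect of Ces1g was not called by limma voom (adjusted p = 0.061).

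Nuclear genes of mitochondrial energy production followed the tubule. All 20 nuclear genes of oxidative phosphorylation rose in the knockout (background 23.6%), 17 rose with the antibody (background 34.1%), and 17 were shared (background 16.7%). Their medians were 0.78 and 0.85, and the median difference was -0.04. Atp5b, the catalytic subunit of ATP synthase, rose by 1.32 and 1.44, and Sdhb, the iron-sulphur subunit of succinate dehydrogenase, by 1.13 and 1.06. The 5 subunits that rose more in the knockout were Ndufb8, Cox4i1, Cox5a, Cox6c and Cox7a2. Cox5a, a subunit of cytochrome c oxidase, rose by 0.99 ± 0.09 in the knockout, and its antibody effect of 0.19 ± 0.10 was not called, with a difference of 0.80 ± 0.13 (adjusted p = 1.0e-04). The 13 genes encoded in the mitochondrial genome had no call in the knockout and 4 rises with the antibody. These rises were near the background of 34.1%, while the knockout effect called 42.6% of all genes.

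Fatty acid oxidation differed more in size. Of its 21 genes, 16 rose and 1 fell in the knockout (backgrounds 23.6% and 19.0%). With the antibody 19 rose (background 34.1%), and 15 were shared (background 16.7%). The medians were 0.58 and 1.03, and 11 differences were called negative against 2 positive (backgrounds 21.6% and 16.3%). Ppara, the nuclear receptor that drives fatty acid oxidation genes, had medians of 26.9 and 23.1 CPM in knockout and wild type, with an effect of 0.21 ± 0.13 that was not called. It rose by 1.55 ± 0.15 with the antibody, from 13.5 to 20.3 CPM with IgG up to 41.0 to 63.5 CPM, and the difference was -1.34 ± 0.20 (adjusted p = 3.5e-05). Cholesterol synthesis genes were shared in 13 of 19 cases, all higher (background 16.7%).

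The other nephron segments rose less. Loop of Henle and distal tubule markers rose in 11 of 16 cases in the knockout (median 0.53) and 13 of 16 with the antibody (median 0.84), and 11 were shared. Collecting duct markers rose in 9 and 10 of 15 cases, and 6 were shared. The backgrounds were 23.6% for knockout rises, 34.1% for antibody rises and 16.7% for shared rises. In each list 1 marker fell with the antibody and none fell in the knockout. Egf, the growth factor made by the distal tubule, had a median of 308 CPM in the knockout and 89.7 CPM in wild type, in ranges of 241 to 390 and 55.3 to 144 CPM that did not overlap. It rose by 1.77 ± 0.29 in the knockout and by 2.98 ± 0.38 with the antibody. Its difference of -1.21 ± 0.45 (adjusted p = 0.041) was not called under 15 of the alternatives, upper-quartile scaling among them (adjusted p = 0.067).

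Some genes of the injured tubule fell with both interventions, and none of the list rose with either. Of 21 markers, 9 fell in the knockout (background 19.0%, median -0.25) and 15 fell with the antibody (background 27.0%, median -0.64). Shared falls numbered 8 (background 9.90%). The summed list overlapped between knockout and wild type, at 14236 to 19138 and 15669 to 23875 CPM, and was lower with the antibody, at 27757 to 44382 CPM, than with IgG. Of the 21, 8 had a called difference, all positive (background 16.3%). Sox9, a transcription factor of tubular repair, had a lowest value of 16.9, a median of 18.4 and a highest of 21.3 CPM in the knockout, against 22.5, 35.6 and 42.7 CPM in wild type. It was 60.1, 31.6, 32.8 and 31.1 CPM with the antibody and 75.2, 101, 76.7 and 102 CPM with IgG. Both treated groups lay below their controls without overlap, and antibody replicate 1 stood above the other 3. The effects were -0.91 ± 0.16 (adjusted p = 1.4e-04) and -1.19 ± 0.19 (adjusted p = 1.7e-05), and the difference 0.28 ± 0.25 was not called (adjusted p = 0.40). In chow Sox9 was at most 0.96 CPM.

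The members of this list did not move as one. Havcr1, which encodes the injury marker KIM-1, was called in neither effect, at 0.01 ± 0.15 and -0.37 ± 0.18. Vcam1, an adhesion molecule of the failed-repair tubule, fell by 0.58 and 0.51, and Cd44, a hyaluronan receptor, fell by 0.51 and 0.70. Anxa1, an annexin, had a knockout effect of -0.0050, not called, and fell by 1.07 ± 0.18 with the antibody, with a difference of 1.07 ± 0.23 (adjusted p = 0.0012). Beyond the list, the shared lower genes included Adamts16, a secreted metalloprotease, which fell by 0.84 ± 0.11 and 1.02 ± 0.14, and Adgrg2, an adhesion G protein-coupled receptor, by 1.25 ± 0.12 and 0.85 ± 0.15. Jchain, a plasma cell gene for the chain that links immunoglobulin units, fell by 1.19 ± 0.29 and 1.57 ± 0.35. Only 20 shared lower genes fell by at least 2-fold in both effects, against 307 shared higher genes that rose by that much.

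NF-kB targets and inflammatory cytokines mostly fell with each intervention, with similar list medians, while some single genes differed. Of 20 genes, 15 fell in the knockout (median -0.51) and 14 fell with the antibody (median -0.47), and 10 were shared, beside backgrounds of 19.0%, 27.0% and 9.90%. The median difference was -0.08, with 3 differences called in each direction. Ccl2, the monocyte chemoattractant, fell by 0.48 and 0.72, Icam1, a leukocyte adhesion molecule, by 0.69 and 0.36, and Relb, an NF-kB subunit, by 0.61 and 0.48. Il1b and Ptgs2, which encode a cytokine and the inducible cyclooxygenase, had effects of -0.08 and -0.06 in the knockout, not called, and fell by 1.19 and 1.11 with the antibody. The difference of Il1b, 1.12 ± 0.31, was not called with a transcript length offset (adjusted p = 0.050). Ccl20, a chemokine, was opposite: it fell by 0.52 in the knockout and rose by 0.54 with the antibody.

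Cxcl1, a neutrophil chemokine, fell in the knockout and was not called with the antibody. It had a lowest value of 33.3, a median of 36.6 and a highest of 53.5 CPM in the knockout against 63.4, 84.0 and 126 CPM in wild type, without overlap. It lay between 98.2 and 186 CPM with the antibody and between 129 and 218 CPM with IgG, and these ranges overlapped. The knockout effect was -1.14 ± 0.18 (adjusted p = 4.5e-05), the antibody effect -0.06 ± 0.21 (adjusted p = 0.83) and the difference -1.08 ± 0.28 (adjusted p = 0.0047). Ifit1, an interferon-induced RNA-binding protein, showed the reverse pattern, with medians of 15.1 and 17.8 CPM in knockout and wild type. It ranged from 7.35 to 14.8 CPM with the antibody and from 23.6 to 30.2 CPM with IgG, without overlap. Its effects were -0.21 ± 0.16 (adjusted p = 0.30) and -1.15 ± 0.19 (adjusted p = 2.9e-05), and its difference was 0.93 ± 0.25 (adjusted p = 0.0053).

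The upstream sequences of these 2 genes are shown because they carry motif types known from the promoters of these 2 gene groups. The 250 bases before the annotated start come from RefSeq on assembly GRCm38.p6, at chr5:90890995-90891244 on the plus strand for Cxcl1 and at chr19:34640639-34640888 on the plus strand for Ifit1. Capitals mark matches on either strand, to GGG and TTCC with any 3 bases between them for the NF-kB type in Cxcl1, and to GAAA repeated with any 2 bases between for the interferon-stimulated response element type in Ifit1.
Cxcl1: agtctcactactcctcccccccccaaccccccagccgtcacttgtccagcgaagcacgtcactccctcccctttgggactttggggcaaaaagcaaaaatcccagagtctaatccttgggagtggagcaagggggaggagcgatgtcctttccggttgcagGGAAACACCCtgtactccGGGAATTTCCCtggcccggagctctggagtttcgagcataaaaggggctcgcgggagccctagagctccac
Ifit1: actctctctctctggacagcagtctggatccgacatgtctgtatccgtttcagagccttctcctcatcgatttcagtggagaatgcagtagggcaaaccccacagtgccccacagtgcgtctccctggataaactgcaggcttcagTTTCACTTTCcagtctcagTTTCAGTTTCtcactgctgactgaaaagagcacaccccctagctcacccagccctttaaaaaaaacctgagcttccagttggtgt
Cxcl1 held 3 matches, of which 2 overlap on opposite strands, with their first bases 89, 71 and 70 bases before the start. Ifit1 held 2, at 104 and 85 bases before the start, both on the minus strand. The NF-kB type was found in 12 of 17 promoters (70.6%) of the 14 NF-kB and cytokine genes in the RefSeq table, in 3 of 19 (15.8%) of the interferon list and in 4.65% of all 32851 promoters. The interferon type was found in 9 of 19 promoters (47.4%) of the 16 interferon genes in the table, in 1 of 17 (5.88%) of the NF-kB list and in 2.98% of all promoters. These are matches of letters and not measured binding.

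Interferon response genes fell with the antibody, and few were called in the knockout. Of 21 tested, 18 fell with the antibody (median -0.98), while 1 rose and 1 fell in the knockout (median -0.13). The backgrounds were 27.0% for antibody falls, and 23.6% and 19.0% for knockout rises and falls. The difference was called positive for 15 (background 16.3%), with a median of 0.93. Rsad2, which encodes the antiviral enzyme viperin, was opposite: it rose by 0.42 ± 0.11 in the knockout and fell by 0.95 ± 0.13 with the antibody, with a difference of 1.38 ± 0.16 (adjusted p = 5.9e-06). Usp18, a deconjugating enzyme that restrains interferon signalling, was 4.93 to 6.64 CPM in the knockout and 4.49 to 6.48 CPM in wild type. It was 2.26 to 3.45 CPM with the antibody and 5.36 to 6.95 CPM with IgG, with a difference of 1.19 ± 0.18. Cgas, the sensor that makes cGAMP, had a knockout effect of -0.34 that was not called and fell by 1.29 with the antibody. Irf9, a subunit of the interferon-activated transcription complex, fell in both, by 0.25 and 0.32. With upper-quartile scaling, 4 of the 21 fell in the knockout and 21 with the antibody, beside 4655 and 7394 of all 17119 genes tested.

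Macrophage markers moved in the same way, and neutrophil and lymphocyte markers did so less. Of 20 macrophage markers, 19 fell with the antibody (median -1.26), and 1 rose and 1 fell in the knockout (median -0.16), and 17 differences were called positive. The backgrounds were 27.0% for antibody falls, 23.6% and 19.0% for knockout rises and falls, and 16.3% for positive differences. C1qa, a complement component made by macrophages, had medians of 59.8 and 55.9 CPM in knockout and wild type. It ranged from 19.99 to 31.9 CPM with the antibody and from 42.0 to 98.5 CPM with IgG, without overlap, and its difference was 1.38 ± 0.24 (adjusted p = 1.8e-04). The summed macrophage list was 323 to 468 CPM with the antibody and 683 to 1253 CPM with IgG, against 568 to 745 CPM in the knockout and 526 to 780 CPM in wild type. Without IgG replicate 2 the list's median difference fell from 1.11 to 0.78. Of 9 neutrophil markers that passed the filter, 5 fell with the antibody (background 27.0%) and 1 in the knockout (background 19.0%). The latter was Cxcr2, a chemokine receptor, which fell by 0.28 ± 0.09 in the knockout and 0.81 ± 0.11 with the antibody. Ly6g, Mpo, Elane, Ngp and Camp did not pass it. Of 19 lymphocyte markers, 10 fell with the antibody and 1, Jchain, in the knockout, beside the same backgrounds. Positive differences were called for 3 of the 9 neutrophil markers and 5 of the 19 lymphocyte markers, and negative ones for none. Cd3e, the T cell receptor subunit, was called in neither effect.

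Mitotic genes fell with the antibody and, for the most part, were not called in the knockout. All but 1 of 25 fell with the antibody (24, median -0.89), 4 fell in the knockout (median -0.17), and 21 differences were called positive, with a median of 0.73. The backgrounds were 27.0%, 19.0% and 16.3%, so the knockout count was no higher than over all genes. Cdk1, the mitotic kinase, ranged from 8.41 to 11.1 CPM with a median of 10.2 in the knockout and from 10.6 to 12.3 CPM with a median of 10.99 in wild type. It ranged from 7.94 to 14.4 CPM with the antibody and from 20.7 to 26.4 CPM with IgG, without overlap. Its difference was 1.05 ± 0.18 (adjusted p = 1.6e-04). Mki67, the proliferation marker Ki-67, had effects of -0.19 ± 0.09 (adjusted p = 0.094) and -0.89 ± 0.11 (adjusted p = 9.2e-07). DNA replication genes fell in 7 of 25 cases in the knockout and 20 with the antibody, and 7 were shared lower, beside backgrounds of 19.0%, 27.0% and 9.90%. Tk1, the thymidine kinase of S phase, was opposite, up by 0.25 ± 0.10 and down by 0.73 ± 0.12. The summed mitosis list was lower in chow, at 36.3 to 42.2 CPM, than in any adenine library, at 202 to 496 CPM.

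**Figure D3:**
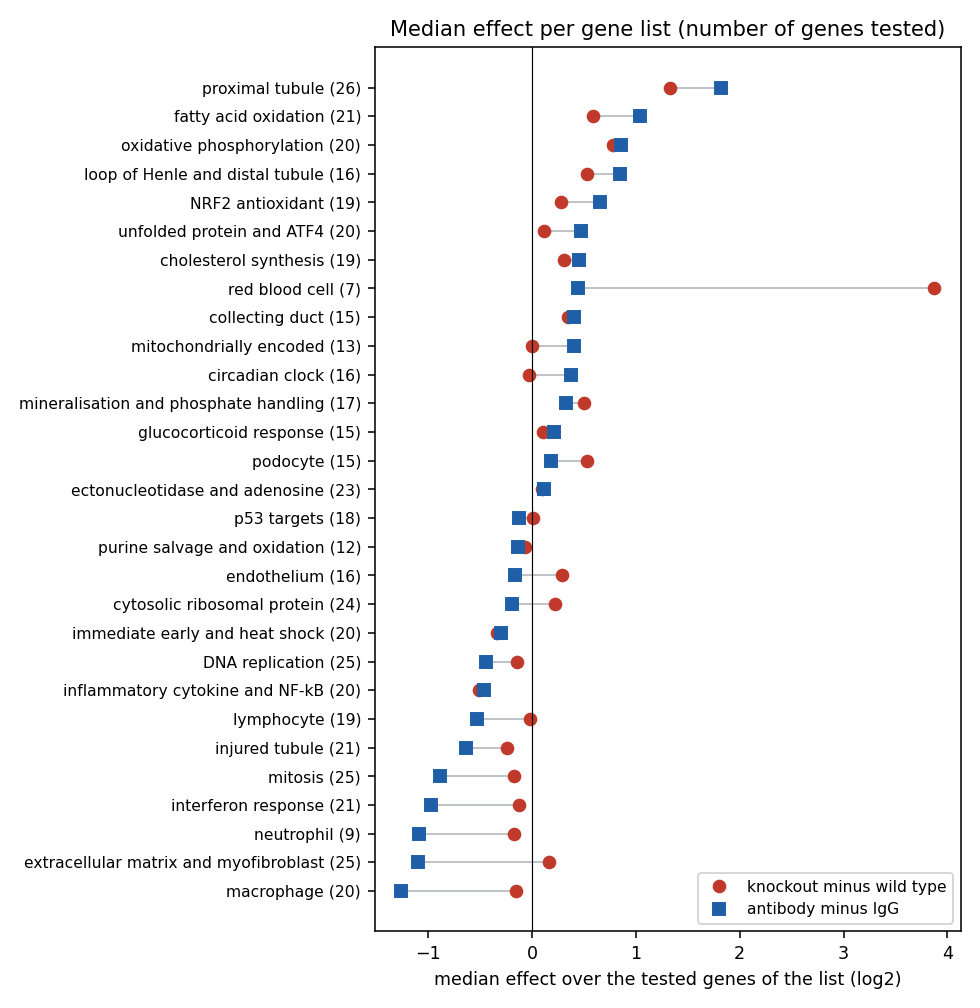
Median log2 effect over the tested genes of 29 gene lists, with a circle for knockout minus wild type and a square for antibody minus IgG, sorted by the antibody median. Proximal tubule genes lie highest for the antibody at 1.82, the macrophage, matrix and interferon lists lie at -1.26, -1.10 and -0.98 for the antibody and at -0.16, 0.16 and -0.13 for the knockout, and the red blood cell list stands apart for the knockout at 3.88.

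Matrix genes fell with the antibody and, for the most part, were not called in the knockout. Of 25 genes of the extracellular matrix and myofibroblasts, 7 rose and none fell in the knockout (median 0.16), and 23 fell and none rose with the antibody (median -1.10). The 7 rises were near the background of 23.6%, while the background of antibody falls was 27.0%. The difference was called positive for 20 (background 16.3%), with a median of 1.31, or 1.09 without IgG replicate 2. Opposite effects held for 7 (background 1.52%): Col5a1, Col6a1, Tagln, Pdgfrb, Pdgfra, Dcn and Sparc. Pdgfrb, a growth factor receptor of pericytes and fibroblasts, rose by 0.52 and fell by 1.07, and Dcn, the proteoglycan decorin, rose by 0.41 and fell by 1.10. The main fibrillar collagen genes were not called in the knockout. Col1a1 ranged from 117 to 186 CPM in the knockout and from 104 to 157 CPM in wild type, which overlapped, and from 19.8 to 37.5 CPM with the antibody and 66.5 to 117 CPM with IgG, which did not. Its effects were 0.15 ± 0.15 and -1.60 ± 0.19, and its difference 1.76 ± 0.24 (adjusted p = 2.1e-05).

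The 6 opposite genes, higher in the knockout, with the largest smaller effect were Col14a1, Col6a3, Col6a2, Loxl1, Tmem119 and Lama2. Col14a1, a fibril-associated collagen, had a lowest value of 18.5, a median of 23.1 and a highest of 24.8 CPM in the knockout against 7.19, 8.75 and 12.4 CPM in wild type. It was 8.96, 7.66, 9.59 and 7.58 CPM with the antibody and 19.3, 22.7, 15.6 and 11.1 CPM with IgG. The knockout libraries lay above wild type and the antibody libraries below IgG, neither pair overlapping, and chow was at 39.2 to 49.8 CPM. The effects were 1.27 ± 0.14 (adjusted p = 1.0e-06) and -1.02 ± 0.17 (adjusted p = 3.5e-05), and the difference 2.29 ± 0.23 (adjusted p = 1.2e-06). Col6a3, a chain of collagen VI, had effects of 0.90 ± 0.12 and -1.13 ± 0.15, from medians of 44.5 and 22.9 CPM in knockout and wild type. Its values were 9.45, 6.91, 8.97 and 6.50 CPM with the antibody and 17.1, 23.8, 15.02 and 13.9 CPM with IgG. Col6a2, another chain of collagen VI, rose by 0.83 and fell by 0.92, and Loxl1, a crosslinking enzyme of elastin, rose by 0.76 and fell by 1.22. Tmem119, a membrane protein of osteoblasts and some stromal cells, rose by 1.00 and fell by 1.05. Lama2, a laminin chain, rose by 0.92 and fell by 0.83, though its knockout effect was not called with the transcript length offset (adjusted p = 0.058).

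Most endothelial markers rose in the knockout, and most were not called with the antibody. Of 16 endothelial markers, 9 rose and 1 fell in the knockout (median 0.29), none rose and 4 fell with the antibody (median -0.16), and 8 differences were called, all positive. The background was 16.3% for positive differences, 23.6% for knockout rises and 27.0% for antibody falls, and the 4 falls were near the last. Pecam1, Flt1 and Eng were opposite (background 1.52%). Eng, the TGF-beta co-receptor endoglin, rose by 0.89 ± 0.10 and fell by 0.49 ± 0.13, with medians of 78.4 and 41.3 CPM in knockout and wild type and ranges that did not overlap. Kdr, the main VEGF receptor, rose by 1.10 in the knockout, and its antibody effect of 0.17 was not called. Of 15 podocyte markers, 12 rose in the knockout (median 0.53) and 6 rose and 5 fell with the antibody (median 0.18), beside backgrounds of 23.6%, 34.1% and 27.0%. Of these markers, 5 were shared higher, 4 were opposite and higher in the knockout, and 1 was opposite and lower. The backgrounds of these classes were 16.7%, 1.52% and 2.37%. Tcf21, a transcription factor of podocytes and stroma, was opposite at 0.45 and -0.85.

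Ribosomal protein genes diverged by small amounts in one direction. Of 24, 17 rose in the knockout (median 0.22), 15 fell and 1 rose with the antibody (median -0.20), and 20 differences were called, all positive (background 16.3%). Opposite effects held for 9, among them Rps19 at 0.22 and -0.28 and Rpl13 at 0.28 and -0.26. With upper-quartile scaling 10 were opposite, 15 rose in the knockout and 19 fell with the antibody. The summed list was 6110 to 6570 CPM in the knockout and 4593 to 5597 CPM in wild type, and 7648 to 7788 CPM with the antibody and 7803 to 8738 CPM with IgG. Neither pair overlapped.

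**Figure D4:**
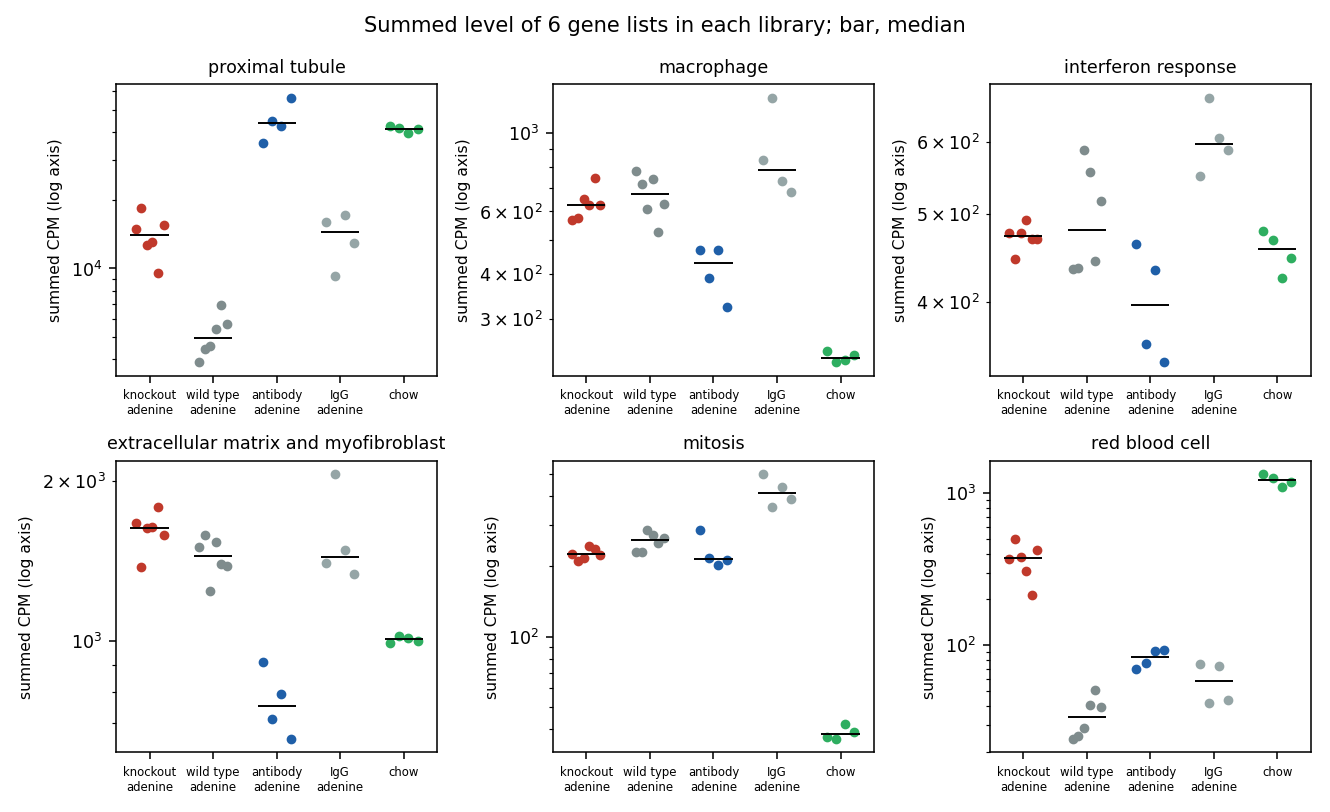
Summed CPM (log axis) of 6 gene lists in each library, in 5 groups, with the group median as a bar. The proximal tubule sum is higher in both treated groups, the macrophage, interferon, matrix and mitosis sums are lower with the antibody than with IgG while knockout and wild type overlap, and the red blood cell sum is 215 to 499 CPM in the knockout against 24.2 to 51.2 CPM in wild type.

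The other opposite class, lower in the knockout and higher with the antibody, held 406 genes. Ccl28, a mucosal chemokine, had a lowest value of 9.54, a median of 11.4 and a highest of 13.4 CPM in the knockout against 18.97, 20.03 and 23.2 CPM in wild type. It was 51.4, 43.3, 34.9 and 74.7 CPM with the antibody and 13.5, 14.8, 22.9 and 29.1 CPM with IgG. Both pairs were separate, in opposite directions. The effects were -0.86 ± 0.18 (adjusted p = 7.1e-04) and 1.35 ± 0.21 (adjusted p = 1.2e-05), and the difference was -2.21 ± 0.27 (adjusted p = 8.0e-06). Prrg4, a membrane Gla protein, fell by 0.60 ± 0.11 in the knockout and rose by 0.86 ± 0.11 with the antibody, from 8.43 to 10.8 CPM with IgG up to 15.8 to 19.3 CPM.

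The remaining genes of that class were less firm. Zbtb16, a zinc finger transcription factor that glucocorticoids induce, had medians of 3.20 and 8.81 CPM in knockout and wild type without overlap, and fell by 1.53 ± 0.36. It was 4.43, 3.71, 11.96 and 26.9 CPM with the antibody and 4.20, 4.39, 2.45 and 5.06 CPM with IgG, an antibody effect of 1.54 ± 0.42. Antibody replicates 1 and 2 lay within the IgG range, and without replicate 4 the antibody effect was 0.74 and not called (adjusted p = 0.054). C4b, a complement component, fell by 0.62 and rose by 0.61, but with the transcript length offset its antibody effect was -0.25 and its difference was not called (adjusted p = 0.072). Adnp, a homeodomain chromatin protein, fell by 0.79 in the knockout, and its antibody effect of 0.53 was not called under 13 alternatives, with an adjusted p of 0.19 under upper-quartile scaling. Cyp2j13, a cytochrome P450 of a multigene family, fell by 0.59 and rose by 1.14, at medians of 3.50 and 4.63 CPM in the knockout experiment but 110 to 396 CPM in the antibody experiment. Its knockout effect was not called by limma voom (adjusted p = 0.064) or without wild-type replicate 2 (adjusted p = 0.055). Among 16 clock genes, 6 were shared higher (background 16.7%) and 2 were opposite in this direction (background 2.37%). The 2 were Clock and Per2, at -0.15 and 0.42 and at -0.40 and 0.44.

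After Rpl9-ps6, described below, globin genes held 4 of the 6 largest positive differences among protein-coding genes of at least 5 CPM, with Slc14a2 as the other. All 4 rose in the knockout and none was called with the antibody. Hbb-bs, an adult beta globin, had a lowest value of 66.8, a median of 127 and a highest of 176 CPM in the knockout against 5.12, 8.55 and 12.6 CPM in wild type. It was 26.1, 30.2, 36.5 and 38.4 CPM with the antibody and 34.2, 19.1, 35.2 and 18.3 CPM with IgG. The first pair was separate and the second overlapped. The knockout effect was 3.88 ± 0.26, the antibody effect 0.30 ± 0.28 (adjusted p = 0.36) and the difference 3.58 ± 0.38 (adjusted p = 1.8e-06). Hba-a2, Hba-a1 and Hbb-bt had differences of 3.69, 3.13 and 3.56. The globin genes are near-identical copies, so their split is uncertain. Chow libraries held more, with Hbb-bs at 378 to 518 CPM. The part of blood in the other knockout effects was not tested.

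**Figure D5:**
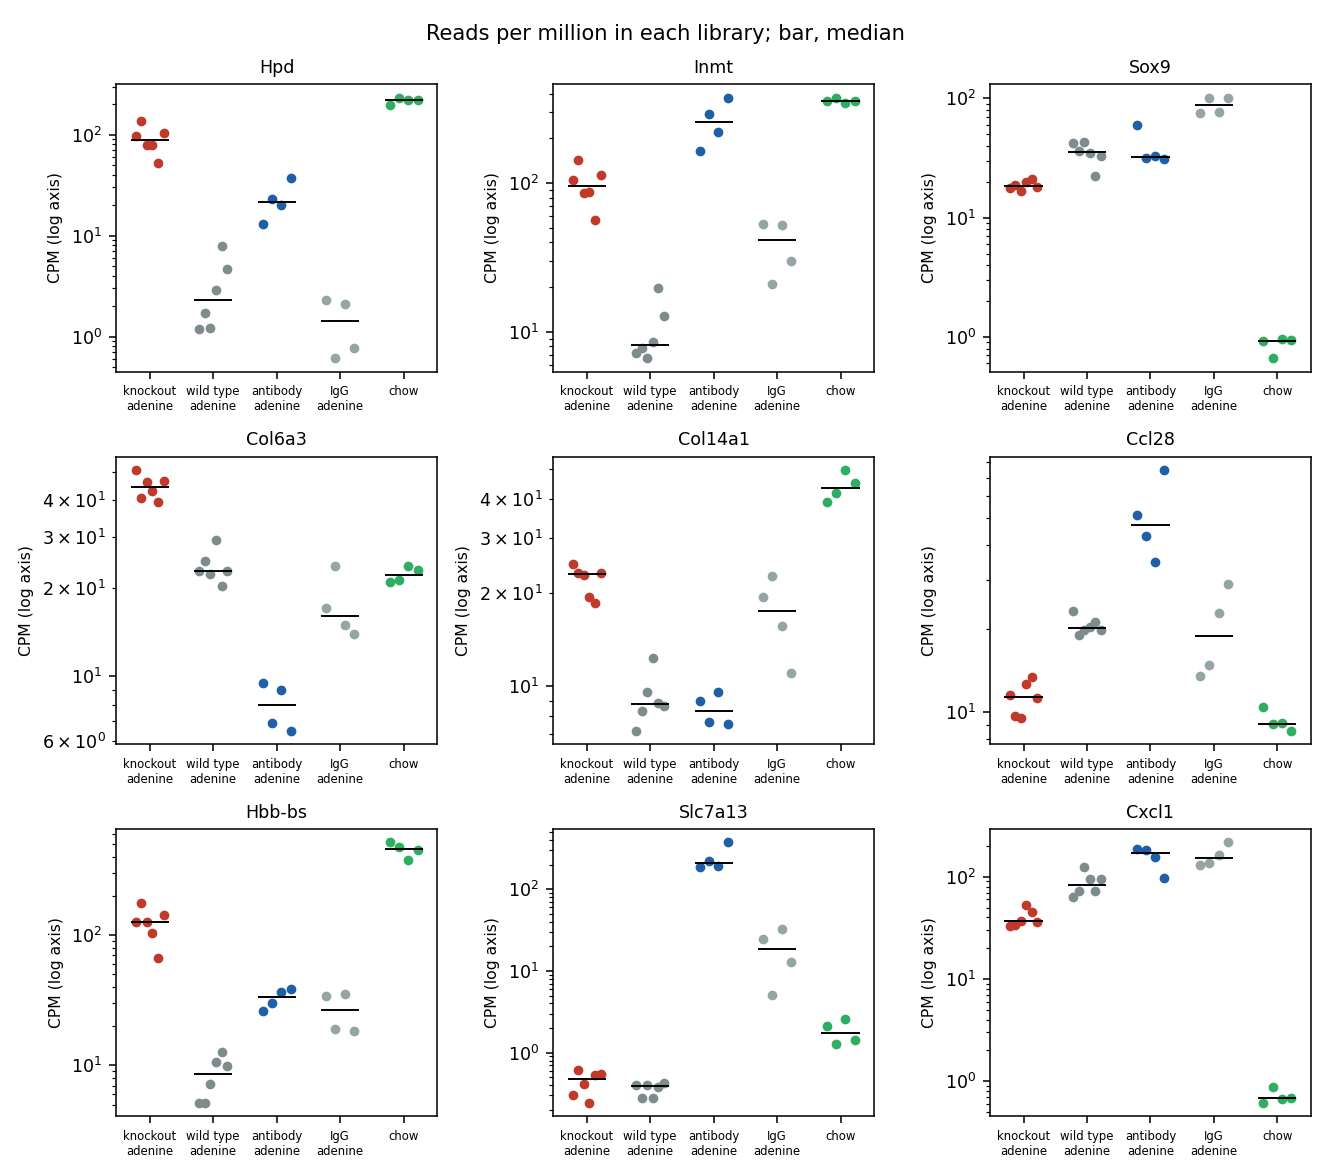
Level in CPM (log axis) of 9 genes in each library, in 5 groups, with the group median as a bar. Hpd and Inmt are higher and Sox9 is lower in both treated groups, Col6a3 and Col14a1 are higher in the knockout and lower with the antibody, Ccl28 goes the other way, Hbb-bs and Cxcl1 separate knockout from wild type only, and Slc7a13 separates antibody from IgG only.

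Other large differences were set by the antibody effect or rested on uncertain assignment of reads. Slc14a2, the urea transporter of the inner medulla, fell by 2.61 ± 0.51 with the antibody, though IgG ranged from 3.97 to 42.3 CPM and overlapped the antibody range of 2.26 to 4.71 CPM. Urothelial markers summed to 0.74 to 0.90 CPM with the antibody and 1.00 to 3.91 CPM with IgG, and to 4.07 to 15.2 CPM in the knockout and 2.63 to 10.9 CPM in wild type. Of 9 of them that passed the filter, 4 rose in the knockout and 3 fell with the antibody, namely Upk3b, Krt14 and Foxa1. The backgrounds were 23.6% and 27.0%, and the 3 falls were near theirs. The part of medulla and pelvis in the sampled tissue was not tested. Rpl9-ps6, a ribosomal protein pseudogene copy, had 0 reads in the antibody libraries and 6464 in the IgG libraries, at least 1592-fold lower against a floor of 3 reads over the group. It has near-identical copies, so the assignment is uncertain.

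The 6 largest negative differences belonged to Abhd4, Slc7a13, Zbtb16, Mdh1, Apoh and Cyp2d9. Slc7a13, an aspartate and glutamate transporter of the late proximal tubule, was 188, 222, 195 and 374 CPM with the antibody and 24.3, 5.15, 32.5 and 12.8 CPM with IgG. It was at most 0.61 CPM in any knockout or wild-type library and 1.27 to 2.59 CPM in chow. The antibody effect was 3.71 ± 0.34. The 6 knockout and 6 wild-type libraries held only 71 and 59 reads in all, so neither its knockout effect nor its difference of -3.43 ± 1.02 is read as a result. Slc7a13 and Cyp2e1 are known to be higher in male than in female mouse kidney, and these 8 libraries were those with Y-linked RNA. Cyp2e1, an ethanol-metabolising P450, rose in both, by 0.99 ± 0.18 and 2.73 ± 0.23, at 35.3 to 117 CPM in the knockout experiment and 234 to 3375 CPM in the antibody experiment. Cyp2d9, a male-biased P450, rose by 0.55 ± 0.21 and 2.80 ± 0.22, and Apoh, a phospholipid-binding plasma protein, rose by 1.85 ± 0.22 with the antibody. Apoh held 13 and 21 reads over the knockout and wild-type groups, so its difference is not read either. The difference for these genes cannot be told apart from the Y-linked split between experiments.

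Abhd4 and Mdh1 also headed this group, with uncertain estimates. Protein-coding transcripts of Abhd4 held 60 to 1696 reads per wild-type library and 206 to 1926 per antibody library. Abhd4, a lipase of N-acyl phospholipids, was 6.81, 7.39, 42.4 and 63.5 CPM with the antibody and 1.15 to 1.71 CPM with IgG, and 3.20 to 60.4 CPM in wild type. Its difference of -4.22 ± 0.89 was not called by limma voom (adjusted p = 0.11). Mdh1, the cytosolic malate dehydrogenase, had a difference of -2.57 ± 0.34, but its protein-coding transcripts held 0 reads in every IgG library and at most 241 reads in an antibody library. Those transcripts held at most 26.7% of the gene's reads in any library.

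Genes near ENPP1 in function showed no single pattern, and their share of calls was near that of all genes (42.6% and 61.1%). Of 23 ectonucleotidase, nucleotide receptor and adenosine genes, 9 rose and 3 fell in the knockout, and 9 rose and 4 fell with the antibody. Shared rises numbered 6 (background 16.7%). Enpp2, the lysophospholipase autotaxin, rose by 0.92 ± 0.13 and 1.71 ± 0.15, Entpd5, a nucleoside diphosphatase, by 0.66 and 1.29, and Slc28a1, a concentrative nucleoside transporter, by 0.95 and 1.36. Nt5e, the AMP-hydrolysing enzyme CD73, fell by 0.38 in the knockout, and its antibody effect of -0.08 and its difference of -0.30 were not called. Ada, adenosine deaminase, was opposite, at 0.55 and -0.45 with a difference of 1.00, as was P2rx4, an ATP-gated channel, at -0.24 and 0.30. Adora1, the adenosine A1 receptor, had an effect of -0.01 in the knockout and fell by 0.91 ± 0.17 with the antibody.

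Mineralisation and phosphate genes were also called in both directions. Of 17 mineralisation and phosphate genes, 9 rose and 5 fell in the knockout and 8 rose and 3 fell with the antibody, beside 42.6% and 61.1% of all genes called. Shared higher genes numbered 5 (background 16.7%) and shared lower genes 2 (background 9.90%). Abcc6, the transporter through which cells release ATP, rose by 1.12 ± 0.10 and 0.89 ± 0.14, and Kl, the FGF23 co-receptor klotho, by 0.87 and 1.58. Spp1, the crystal-binding protein osteopontin, fell by 0.33 and 0.64. Mgp, the mineralisation inhibitor matrix Gla protein, was opposite: it ranged from 203 to 268 CPM in the knockout and 141 to 187 CPM in wild type, and from 64.1 to 92.7 CPM with the antibody and 119 to 243 CPM with IgG. Its difference was 1.73 ± 0.21 (adjusted p = 6.7e-06). Trpv5, the distal calcium channel, was opposite the other way, at -0.31 ± 0.11 and 0.47 ± 0.14. Ank, the pyrophosphate exporter, rose by 0.49 ± 0.12 in the knockout and had an antibody effect of -0.09 ± 0.14. Of 12 purine salvage and oxidation genes, 2 rose and 2 fell in the knockout and 3 rose and 4 fell with the antibody, no more than the backgrounds of 42.6% and 61.1%. Xdh, the oxidoreductase that oxidises adenine, fell by 0.33 ± 0.05 in the knockout and had an antibody effect of 0.04 ± 0.06, with a difference of -0.37 ± 0.08 (adjusted p = 0.0015). Adk, adenosine kinase, rose by 1.18 and 1.27.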

How the data were processed

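Kidney RNA was measured in 24 libraries, each read as 1 mouse. The labels do not say so, and if libraries shared a mouse the p-values would cover technical spread only. Transcripts were quantified with Salmon on GRCm39, per the submitters' processing notes, and replicates were not pooled. The authors deposited expected counts per transcript, left unscaled. Their deposited TPM column, scaled by transcript length, entered no test.

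Expected counts were summed per gene through GENCODE M21 (115685 of 116755 transcripts matched; the rest held 0.44% to 0.53% of the reads of an adenine library and were left out) and rounded. The annotation's build differs from the authors', so coordinates are given only for RefSeq promoters. The 20 adenine libraries shared 1 fit (edgeR 4.0.16, R 4.3.3, filterByExpr, TMM, quasi-likelihood F test, no covariates), from which both effects and their difference were taken. Calls use Benjamini-Hochberg adjusted p-values over all genes at 0.05, two-sided. Errors of log2 effects are standard errors, and CPM is TMM-scaled. A gene with at most 3 reads over a group gets a counting bound, which covers counting error only, in place of a fitted fold.

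Members and the 33 gene lists were chosen with earlier results of these data known. Named genes were Enpp1; among protein-coding genes of at least 5 CPM, the 6 largest differences in each direction and the 6 shared and 6 opposite genes per direction with the largest smaller effect; and, per list, the first 2 members and up to 2 with the largest called difference. Other members were named after their values were seen. The code was tested on simulated data. Same-numbered libraries were not alike (correlations of -0.32 to 0.07 over 6 pairs and -0.24 to -0.11 over 4), so replicate numbers did not pair samples. No libraries were duplicates. Alternatives were other scalings, filters, tools (limma 3.58.1, DESeq2 1.42.0), samples, a length offset, a replicate block and leaving out each library; thinning the antibody libraries was chosen after seeing the data. Some genes that the rule names are not reported here.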

Additional observations from a re-analysis of the deposited data

Results flagged for a closer look

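A library stood apart from the rest of its group, by Dixon's test at the 95% level, in 8 of 265 groups of values examined (3.02%), where chance alone flags about 1 in 20. Antibody replicate 1 accounted for 3 of them: Sox9 at 60.1 CPM, the summed mitosis list at 286 CPM and the summed fatty acid oxidation list at 4584 CPM, in each case nearer to the IgG libraries than the other 3. Wild-type replicate 5 accounted for another 3: Enpp1 at 24.1 CPM, the summed ribosomal protein list at 4593 CPM and the summed podocyte list at 536 CPM. Abhd4 was low in knockout replicate 1, at 33.7 CPM. Apom was high in IgG replicate 3, at 6.32 CPM.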

How the results depend on the processing

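Of the counts of called genes, 119 of 128 values under alternatives other than leaving out a library stayed within 1.5 times the main count, as did all 200 with 1 library left out. Upper-quartile scaling gave 4504 higher and 2012 lower differences, 3459 genes higher and 7394 lower with the antibody, 1867 shared higher, 3206 shared lower and 227 opposite genes lower in the knockout. The last count was 215 with a fit per experiment and 269 with the transcript length offset. With the replicate block, whose numbers share only a label, the differences numbered 2386 higher and 3312 lower, and no same-numbered library correlated best with its own number (0 of 6 and 0 of 4). With 1 library left out, higher differences numbered 2394 to 3005, lower 3152 to 3824, shared higher 2242 to 2969, shared lower 1388 to 2041, opposite higher in the knockout 199 to 273 and opposite lower 337 to 502. With the antibody experiment thinned, higher and lower differences numbered 2642 and 3420. Fits made per experiment give no test of the difference.

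Signs turned only where neither value was called, apart from the antibody effect of C4b, which became -0.25 with the length offset, and that of Enpp1 without antibody replicate 4. The difference of Enpp1 was 0.13 with upper-quartile scaling, 0.020 without mitochondrial genes, 0.059 with the filter on mean CPM, 0.42 and 0.76 with voom and weighted voom, 0.019 with all 24 libraries and 0.31 with the replicate block. The knockout effect of Enpp1 was -0.016 (upper quartile), -0.012 (mean filter) and -0.0032 (length offset). The antibody effect of Enpp1 was -0.15 (upper quartile), -0.071 (mean filter), -0.37 and -0.69 (voom, weighted voom), -0.0025 (own fit), -0.0027 (all libraries) and -0.25 (replicate block). Upper-quartile scaling gave differences of 0.072 for Tnf, 0.13 for Ndufa9, 0.032 for Hsp90b1 and 0.014 for Mdm2. Ndufa9 was 0.019 without mitochondrial genes, 0.058 with the mean filter and 0.015 with all libraries, Nphs1 was -0.078 with the length offset, and Mcm2 and Upk1a were -0.0057 and -0.041 when thinned. With 1 library left out, the differences ranged from -0.32 to 0.66 for Enpp1, -0.010 to 0.099 for Mcm2, -0.28 to 0.091 for Tnf, -0.11 to 0.044 for Ndufa9, -0.70 to 0.053 for Fos, -0.11 to 0.20 for Tsc22d3 and -0.073 to 0.28 for Nqo1, and the antibody effect of Enpp1 from -0.61 to 0.37. The cause was not tested. Genes with few reads in the knockout experiment, such as Slc7a13 and Apoh, have imprecise knockout effects.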

Other observations

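Over all genes tested, the knockout effect called 42.6% (23.6% higher, 19.0% lower) and the antibody effect 61.1% (34.1% higher, 27.0% lower). Shared higher genes made up 16.7% and shared lower genes 9.90%. The counts of the stress and hormone lists are read against these shares. Of 19 NRF2 antioxidant genes, 10 rose in the knockout and 16 with the antibody, and 9 were shared. Nqo1, a quinone reductase, rose by 1.23 ± 0.16 and 1.09 ± 0.17. Gsta4, a glutathione transferase for lipid aldehydes, rose more in the knockout, by 1.91 ± 0.16 against 0.55 ± 0.19, and Txnrd1, thioredoxin reductase, had a knockout effect of 0.18 ± 0.10 that was not called and rose by 1.05 ± 0.12 with the antibody. Of 18 p53 targets, 2 rose and 5 fell in the knockout and 3 rose and 8 fell with the antibody, both near the shares over all genes. Phlda3, a p53-induced inhibitor of AKT, was opposite, at 0.54 ± 0.11 and -1.11 ± 0.14. Of 20 unfolded protein and ATF4 genes, 8 rose and 2 fell in the knockout, 12 rose and 1 fell with the antibody, 6 were shared higher, and Phgdh, the entry enzyme of serine synthesis, was opposite at 0.60 ± 0.07 and -0.53 ± 0.09.

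Among immediate early and heat shock genes, 10 of 20 fell and 4 rose in the knockout, 8 fell and 3 rose with the antibody, and 6 were shared lower. Fosb, an AP-1 subunit, fell by 0.58 ± 0.15 and 0.97 ± 0.19. Atf3, a stress transcription factor, fell by 0.88 ± 0.17 in the knockout and had an antibody effect of -0.13 ± 0.20. Of 15 glucocorticoid response genes, 5 rose and 4 fell in the knockout and 6 rose and 2 fell with the antibody, the latter no more than over all genes. Fkbp5, an immunophilin that glucocorticoids induce, had a knockout effect of -0.27 ± 0.14 (adjusted p = 0.14) and rose by 1.27 ± 0.17 with the antibody, from 32.4 to 37.8 CPM with IgG up to 51.5 to 131 CPM, with a difference of -1.54 ± 0.22 (adjusted p = 3.0e-05). Uox, the urate oxidase gene, chosen after its value was seen, had a knockout effect of -0.06 ± 0.28 (adjusted p = 0.88) and fell by 1.53 ± 0.28 with the antibody. Of 6 adipose tissue markers tested, 1 rose and 1 fell in the knockout and 1 rose and 2 fell with the antibody, and neither of the 2 adrenal gland markers tested was called.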
